A study of Mus musculus with 23 samples.

Results

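The interferon-inducible GTPases described here are 10 genes, the guanylate-binding proteins Gbp2, Gbp3, Gbp4, Gbp5, Gbp6 and Gbp7 and the immunity-related GTPases Igtp, Irgm1, Irgm2 and Iigp1. They were chosen by gene symbol from the 55449 genes of the table, and all 10 passed the filter on low counts in every comparison. RNA was sequenced in bulk from the colon of male C57BL/6 Cdx2Apcf/w mice. In these mice a CDX2-driven Cre recombinase deletes the floxed allele of the tumor suppressor Apc, and the other allele is wild type (f/w). Every mouse received a 60% high-fat diet from 6 to 8 weeks of age. After a course of antibiotics the mice were colonized with Bacteroides fragilis 638R, either with the low bile salt hydrolase activity of the strain itself (labelled bsh-, BF BSHlow, carrying an empty vector according to the methods) or with an added bsh gene (labelled bsh+, BF BSHhigh), so the Apc deletion, the diet, the antibiotics and the bacterial species are common to both arms. Normal colon was taken after 2 weeks of colonization (4 BSHlow and 4 BSHhigh libraries). Tumors (4 BSHlow and 3 BSHhigh) and the non-tumor tissue of the colon (4 and 4) were taken after 12 weeks, giving 23 libraries. The 3 BSHhigh tumor libraries carry no replicate number in the table and are called a, b and c.

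Total gene counts ran from 12401388 to 17903008 per library, with a median of 15874872. Apc was at 67.4 to 190 CPM (counts scaled to a common library total) in normal and non-tumor colon and at 8.75 to 28.6 CPM in tumors, and WNT target genes were higher in tumors of both arms (4 of 4 passing the test). Epithelial markers were abundant in all groups. Markers of smooth muscle summed to 1098 to 6679 CPM in 12-week non-tumor tissue and to 4.81 to 133 CPM in 2-week normal colon. Those 2 tissues thus held different mixtures of cells. In tumors the same markers summed to 95.95 to 198 CPM (BSHlow) and 137 to 260.5 CPM (BSHhigh). Mature colonocyte markers summed to 51.4 to 134 and 142 to 693 CPM there, beside 1624 to 4269 and 1954 to 2561 CPM in non-tumor tissue. Tumor and non-tumor tissue therefore also held different mixtures of cells. In bulk tissue, fewer cells of a type and less RNA per cell cannot be told apart. The labels do not say whether each library came from a separate mouse, so the p-values measure only the spread between these libraries.

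Guanylate-binding proteins and immunity-related GTPases are cytoplasmic enzymes of cell-autonomous defence. Interferon gamma, released mainly by T cells and natural killer cells, binds IFNGR1 and IFNGR2, the kinases JAK1 and JAK2 pass the signal on, and transcription factors that include IRF1 switch these genes on, while type I and lambda interferons reach many of the same promoters through an interferon-stimulated response element (ISRE). The guanylate-binding proteins then coat bacteria and the vacuoles that hold them and help caspases to sense bacterial lipopolysaccharide, Iigp1 is loaded onto such vacuoles, and Igtp, Irgm1 and Irgm2 are regulators on the cell's own membranes.

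The genes lie in clusters. In the GRCm38 mouse genome with GENCODE M21 annotation, Gbp5 (chr3:142493978-142522344), Gbp7 (chr3:142530342-142550149), Gbp3 (chr3:142560026-142573209) and Gbp2 (chr3:142620602-142638008) follow one another on the plus strand of chromosome 3. Gbp4 (chr5:105115767-105139586) and Gbp6 (chr5:105270702-105293698) are on the minus strand of chromosome 5. Igtp (chr11:58199556-58207591) and Irgm2 (chr11:58199618-58222782) overlap on the plus strand of chromosome 11, Irgm1 (chr11:48861968-48871683) is on its minus strand, and Iigp1 (chr18:60376027-60392634) is on the plus strand of chromosome 18. All are protein-coding.

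How well reads can be assigned differs between members, because the families arose by duplication. Of all stretches of 50 bases in the exons of Gbp6, 70.7% also occur in another gene, mostly the overlapping gene Gm43302 (65.0%), so the Gbp6 values are uncertain as to which of these loci they come from. The share was 12.7% for Gbp7, 11.8% for Igtp (in Irgm2), 7.77% for Irgm2 and 7.70% for Gbp4, and it was under 4% for the other 5 members. The estimated counts of Igtp and Irgm2 were not whole numbers in 22 of 23 libraries and those of Gbp6 in 20, which marks reads divided between loci, whereas those of Gbp5 and Irgm1 were whole in every library.

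The promoters show one shared feature. RefSeq promoter windows (GRCm38.p6, 250 bases before to 50 bases after the start) were at hand for 7 of the 10 members, and each of the 7 held the ISRE core GAAANNGAAA on one strand or the other. By comparison, 3.99% of the 27025 genes with a window held it, or 3.44% of the 32851 windows. Gbp3 had 2 windows, and its matches all lie in the same window. The lines below give 30 bases around the match in the direction of transcription, with the match in capitals. They are shown because the match sits close to the start. Its first base lies 24 to 64 bases upstream in 6 genes and 165 bases upstream in Gbp5.
Gbp2 (chr3:142620594-142620623, plus strand): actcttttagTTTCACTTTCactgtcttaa
Gbp3 (chr3:142559995-142560024, plus strand): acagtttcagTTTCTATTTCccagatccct
Gbp5 (chr3:142496759-142496788, plus strand): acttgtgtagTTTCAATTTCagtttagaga
Gbp7 (chr3:142530273-142530302, plus strand): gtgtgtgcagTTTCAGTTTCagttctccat
Igtp (chr11:58199512-58199541, plus strand): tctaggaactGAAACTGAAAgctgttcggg
Irgm1 (chr11:48871425-48871454, minus strand): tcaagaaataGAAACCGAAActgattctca
Irgm2 (chr11:58214903-58214932, plus strand): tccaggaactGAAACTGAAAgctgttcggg

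The 4 guanylate-binding protein genes carry the element as its reverse complement, and the 3 immunity-related GTPase genes carry it in the forward sense. Gbp3 and Irgm1 each held a second match that overlaps the one shown. The Gbp2 and Irgm1 stretches also fall in an annotated GENCODE exon. A match describes letters in these windows only. Binding was not measured, and a link between a match and the level of a gene was not tested.

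Per kilobase of exon, averaged over the 23 libraries, Gbp2 was the most abundant member at 13.5 CPM per kb, followed by Irgm2 at 10.6, Igtp at 10.5 and Irgm1 at 10.2 CPM per kb. Gbp3 (4.28 CPM per kb), Gbp7 (2.52), Gbp6 (2.46) and Iigp1 (2.02) were intermediate. Gbp4 (0.712 CPM per kb) and Gbp5 (0.541) were the lowest. By group, Gbp2 had the highest mean in both arms of non-tumor tissue and in BSHhigh tumors, whereas Irgm2 led in BSHlow tumors (9.56 CPM per kb, Gbp2 3.95), Irgm1 in BSHlow 2-week colon (11.3 CPM per kb, Gbp2 5.75) and Igtp in BSHhigh 2-week colon (18.4 CPM per kb, Gbp2 16.9). All CPM values, above and below, are scaled by TMM, and the levels below compare one gene between libraries.

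**Figure D1:**
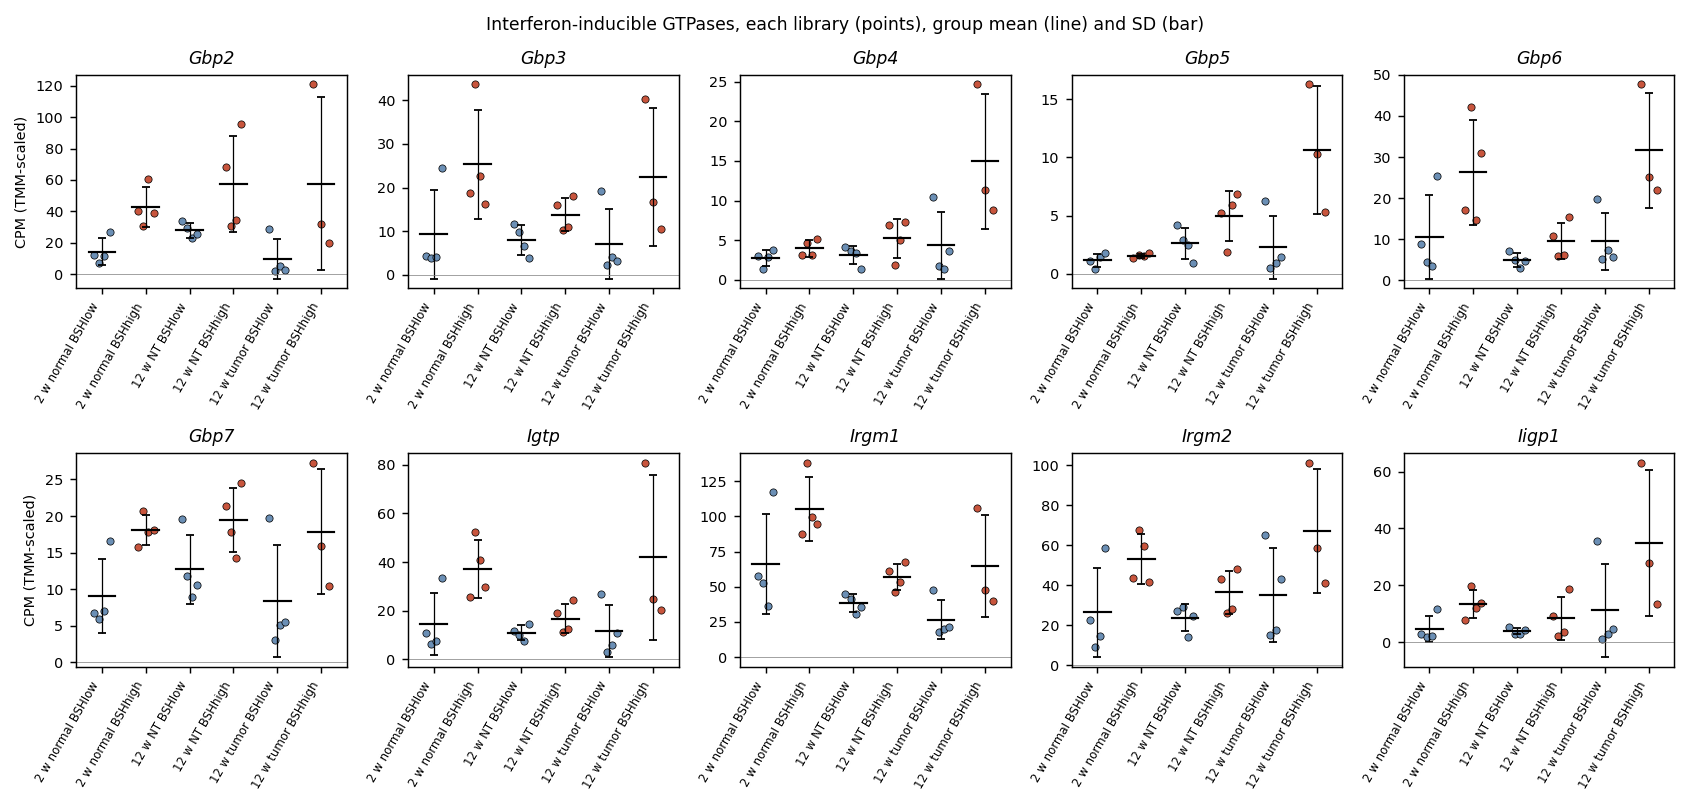
Level of each of the 10 GTPases (y axis, TMM-scaled CPM, one panel per gene) in every library, by tissue and arm (x axis, blue BSHlow, red BSHhigh), with group means as lines and SD as bars. The BSHhigh mean lies above the BSHlow mean in all 30 pairs of gene and tissue, and single high libraries widen the bars of BSHlow tumors and BSHlow 2-week colon.

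The mean of the BSHhigh libraries was above that of the BSHlow libraries for every member in each of the 3 tissues, 30 of 30 values. The members share their libraries and move together, so the 30 values are not independent of one another. The highest group mean was that of BSHhigh tumors for 7 members. Gbp3 and Irgm1 were highest in BSHhigh 2-week colon and Gbp7 in BSHhigh non-tumor tissue, and no member was highest in a BSHlow group. The lowest group was BSHlow tumor for 4 members, BSHlow non-tumor for 4 and BSHlow 2-week colon for 2. When the 6 groups are placed in order of their means, the ranges of neighbouring groups overlapped at all 5 steps for 7 members, and at 4 of 5 steps for Gbp4, Igtp and Irgm1, so the order is a description.

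Certain libraries stood apart for the whole set. BSHlow tumor 1, BSHlow 2-week colon 4, BSHhigh tumor a and BSHhigh non-tumor 4 each had the highest level of their group for 10 of 10 members. On the log2 scale their mean deviations over the members from the group mean were 1.73, 1.25, 0.95 and 0.66. At the other end, BSHlow tumor 2 was below its group mean for all 10 members, by 1.10 on average (−1.10), and so were BSHlow 2-week colon 2 (−0.78), BSHhigh tumor c (−0.75) and BSHhigh non-tumor 2 (−0.68). The members therefore moved as a block within groups. Counts of members, here and below, are thus not counts of independent results, and shares of all genes beside them give only a scale. Over the 45 pairs of members, the correlation of these within-group deviations across the 23 libraries ran from 0.61 (Gbp5 with Gbp6) to 0.94 (Gbp4 with Gbp5), with a median of 0.82, a description that rests in part on the libraries named here. Values without them are given for the differences between arms, and for those between tissues or times where a call changed.

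**Figure D2:**
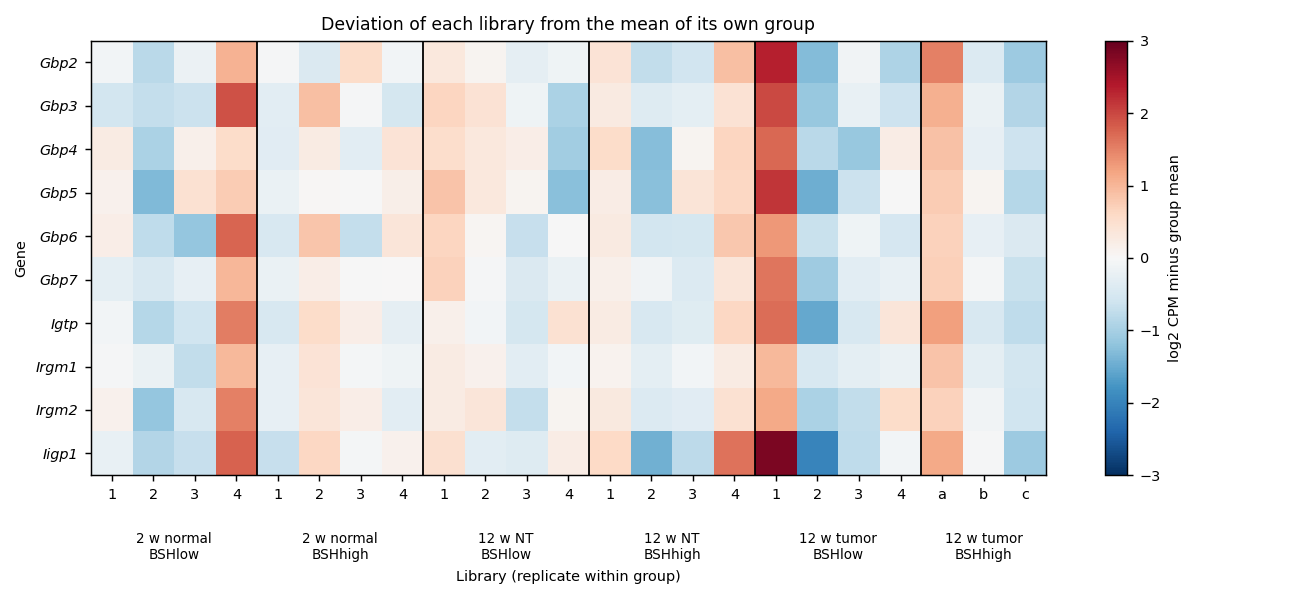
Heat map of log2 CPM minus the mean of the library's own group (color, red above and blue below) for the 10 GTPases (rows) in the 23 libraries (columns, grouped by tissue and arm). Whole columns share one color, red in BSHlow tumor 1 (mean deviation 1.73) and BSHlow 2-week colon 4 (1.25) and blue in BSHlow tumor 2 (−1.10).

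The question of the study was what bacterial bile salt hydrolase does to the colon and its tumors. In the 12-week tumors, all 10 GTPases were at a higher level in BSHhigh than in BSHlow, with log2 fold changes of 0.90 to 2.51 and a median of 1.67, beside a median of −0.03 over the 15325 genes tested, of which 45.5% were positive. None of the 10 passed edgeR's quasi-likelihood test at an adjusted p under 0.05 (0.47% of genes were called higher and 0.0392% lower). At an unadjusted p under 0.05 there were 6 of 10, beside 8.5% of all genes. DESeq2 called 1 member (Gbp6, DESeq2 adjusted p = 0.0162, 3.95% of genes called higher) and limma-voom called 0, and a single edgeR fit over the 23 libraries called 2 (Gbp2, adjusted p = 0.0371, and Gbp5, adjusted p = 0.0485, 4.58% of genes called higher).

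Gbp2, which coats bacterial vacuoles, had the largest fold change. It was at 29.0, 2.36, 5.34 and 3.03 CPM in BSHlow tumors 1 to 4 and at 121, 32.2 and 19.9 CPM in BSHhigh tumors a to c. BSHlow tumors 2 to 4 were below all BSHhigh tumors, but BSHlow tumor 1 exceeded BSHhigh tumor c, so the groups overlapped. The fold change was 5.68, or 2.51 on the log2 scale with an SE of 0.97 (edgeR adjusted p = 0.324).

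Gbp6 was the only member whose tumor groups did not overlap, which was the case for 7.93% of genes in this direction. Its levels were 19.8, 5.03, 7.30 and 5.62 CPM in BSHlow tumors and 47.7, 25.1 and 22.03 CPM in BSHhigh tumors. The log2 fold change was 1.72 with an SE of 0.52 (edgeR adjusted p = 0.210). Over most of its exon sequence, reads of Gbp6 and Gm43302 cannot be told apart.

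Gbp5, a guanylate-binding protein linked to inflammasome activation, was at 6.28, 0.513, 0.906 and 1.42 CPM in BSHlow tumors and at 16.3, 10.3 and 5.34 CPM in BSHhigh tumors. BSHhigh tumors a and b exceeded all BSHlow tumors, and c fell below BSHlow tumor 1. The log2 fold change was 2.19 with an SE of 0.81 (edgeR adjusted p = 0.300). Gbp3 (1.62, SE 0.79), Gbp4 (1.75, SE 0.70) and Gbp7 (1.06, SE 0.63) had adjusted p-values of 0.344 to 0.548 in the same edgeR test.

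Among the immunity-related GTPases, Igtp was at 26.8, 2.87, 5.96 and 10.7 CPM in BSHlow tumors and at 81.0, 24.7 and 20.1 CPM in BSHhigh tumors, with only BSHhigh tumor a above the whole BSHlow range. Irgm1, a regulator of autophagy and of organelle membranes, was at 47.8, 17.7, 19.9 and 21.5 CPM in BSHlow tumors and at 106, 48.0 and 39.9 CPM in BSHhigh tumors. Its b library exceeded BSHlow tumor 1 by under 1 CPM. The log2 fold changes were 1.83 (SE 0.76) for Igtp and 1.26 (SE 0.45) for Irgm1, with edgeR adjusted p-values of 0.367 and 0.284.

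Iigp1, the GTPase loaded onto vacuoles, had the widest spread. BSHlow tumor 1 held 35.7 CPM and the other BSHlow tumors 1.28, 2.96 and 4.74 CPM, beside 63.2, 27.9 and 13.4 CPM in BSHhigh tumors. BSHlow tumor 1 thus exceeded BSHhigh tumors b and c. Irgm2 behaved alike, at 65.1, 15.2, 17.6 and 43.2 CPM in BSHlow and 101, 58.6 and 41.4 CPM in BSHhigh tumors, and had the smallest log2 fold change of the members (0.90, SE 0.54).

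One library on each side moved these values. Without BSHlow tumor 1, 9 of 10 members had tumor groups that did not overlap, all but Irgm2, beside 12.1% of genes in that direction. That library was the highest BSHlow tumor for 10 of 10 members, so leaving it out could only lower the top of their BSHlow range. All genes were not selected by that library, so the 12.1% is not a like background. Gbp2 then had a log2 fold change of 4.01 (edgeR adjusted p = 0.101) and Iigp1 one of 3.53 (adjusted p = 0.104), still with 0 members called and 0% of genes called higher in that smaller fit. Without BSHhigh tumor a, the log2 fold change of Gbp2 was 1.36 (adjusted p = 0.997) and that of Gbp6 1.29 (adjusted p = 0.723), and 1 member had groups that did not overlap (Gbp6, 9.12% of genes). All 10 fold changes stayed positive in both cases. The low libraries moved the values less, with a median log2 fold change of 1.42 without BSHlow tumor 2 and of 1.98 without BSHhigh tumor c, 10 of 10 positive and 0 called in each.

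Sums of lymphocyte markers had a higher mean in BSHhigh than in BSHlow tumors, as the GTPases had. The 6 T cell markers summed to 2.00 to 13.8 CPM in BSHlow tumors and to 23.2 to 34.6 CPM in BSHhigh tumors, and 6 of 6 were positive with 0 called and a median log2 fold change of 2.26. The highest sum among BSHlow tumors was in tumor 1, and the highest among BSHhigh tumors in a. The 6 natural killer and cytotoxic markers summed to 0.513 to 5.01 CPM and 7.68 to 9.83 CPM, with Ncr1 at 0 in all BSHlow tumors. The 4 B cell markers summed to 0.308 to 2.67 CPM in BSHlow and 2.28 to 10.2 CPM in BSHhigh tumors, the 2 of them that were tested were positive with 0 called, and the highest BSHlow sum was in tumor 3. Macrophage markers summed to 124 to 326 CPM and 243 to 347 CPM. Mature colonocyte markers, which lie at 51.4 to 134 CPM in BSHlow and 142 to 693 CPM in BSHhigh tumors, also differed, with 2 of 5 called higher (Slc26a3 and Aqp8). The part of these cells in the GTPase levels was not tested.

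In the 12-week non-tumor tissue, all 10 members again had a positive difference, of smaller size. The log2 fold changes ran from 0.57 to 1.12 with a median of 0.76, beside a median of −0.01 over 14934 genes, 47.2% of them positive. None of the 10 was called by edgeR (0% of genes higher), 5 had an unadjusted p under 0.05 (5.3% of genes), DESeq2 called 1 (Irgm1, DESeq2 adjusted p = 0.0484, 1.02% of genes called higher) and limma-voom called 0.

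Irgm1 was the member whose non-tumor groups did not overlap, as for 3.23% of genes. It was at 45.0, 41.6, 30.3 and 35.9 CPM in BSHlow and at 60.9, 46.1, 53.5 and 67.3 CPM in BSHhigh tissue. Its log2 fold change was 0.57 with an SE of 0.15 (edgeR adjusted p = 0.365). This was the smallest fold change of the set and the one with the smallest error.

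Gbp2 was at 34.2, 29.2, 22.98 and 25.4 CPM in BSHlow and at 68.1, 30.9, 34.3 and 95.4 CPM in BSHhigh non-tumor tissue. BSHhigh libraries 1, 3 and 4 exceeded all BSHlow libraries, library 3 by under 1 CPM, and library 2 lay within their range (log2 fold change 1.02, SE 0.34, edgeR adjusted p = 0.452). The largest difference was that of Iigp1, at 2.86 to 5.19 CPM in BSHlow and at 9.19, 2.24, 3.52 and 18.9 CPM in BSHhigh tissue (1.12, SE 0.60, adjusted p = 0.621), where BSHhigh libraries 2 and 3 lay within or below the BSHlow range. T cell markers did not separate these groups, with sums of 6.39 to 29.1 CPM in BSHlow and 9.22 to 30.9 CPM in BSHhigh tissue and 1 of 6 positive. The BSHhigh library with the highest GTPase levels, number 4, had a T cell marker sum of 15.1 CPM, and number 3 had the highest sum. Without BSHhigh library 4 all 10 log2 fold changes stayed positive, from 0.36 (Igtp) to 0.71 (Gbp5) with a median of 0.51, and that of Iigp1 was 0.37 (edgeR adjusted p = 0.897). Without BSHhigh library 2 they ran from 0.64 to 1.44 with a median of 0.96. No member was called in either fit.

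After 2 weeks of colonization the pattern was present in normal colon. All 10 log2 fold changes were positive, from 0.40 to 1.54 with a median of 1.14, beside a median of 0.00 over 13753 genes, 49.5% of them positive. None was called by edgeR (0.00727% of genes higher, 0% lower), 6 had an unadjusted p under 0.05 (3.83% of genes), DESeq2 called 1 (Gbp2, DESeq2 adjusted p = 0.00325, 0.305% of genes) and limma-voom called 0.

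Gbp2 was at 12.3, 7.42, 11.4 and 26.8 CPM in BSHlow and at 40.2, 30.6, 60.6 and 39.0 CPM in BSHhigh 2-week colon, the only member whose groups did not overlap (2.09% of genes). Its log2 fold change was 1.54 with an SE of 0.35 (edgeR adjusted p = 0.581). For the other members BSHlow library 4 lay within the BSHhigh range. Igtp was at 10.9, 6.42, 7.68 and 33.3 CPM in BSHlow and at 25.6, 52.4, 40.8 and 29.8 CPM in BSHhigh colon (1.33, SE 0.47), and Gbp3 at 4.399, 3.92, 4.17 and 24.5 CPM beside 18.7, 43.7, 22.7 and 16.3 CPM (1.43, SE 0.60).

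Without BSHlow 2-week library 4, 5 of 10 members were called higher by edgeR, where 0.286% of genes were. These were Gbp2 (log2 fold change 2.03, adjusted p = 0.0256), Gbp3 (2.60, adjusted p = 0.0278), Gbp7 (1.46, adjusted p = 0.0202), Igtp (2.14, adjusted p = 0.0265) and Iigp1 (2.54, adjusted p = 0.0256). Of the 10 members, 9 then had groups that did not overlap, all but Gbp5, beside 3.65% of genes. Library 4 was the highest BSHlow library for 10 of 10 members and is singled out here for that. Leaving it out could only lower the top of their BSHlow range, so neither share of all genes is a like background. Gbp5 itself was at 0.417 to 1.76 CPM in BSHlow and 1.36 to 1.76 CPM in BSHhigh colon, and Gbp4 at 1.33 to 3.73 and 3.09 to 5.21 CPM, the pair with the smallest differences at this time. T cell marker sums were 12.4 to 29.3 CPM in BSHlow and 21.98 to 46.3 CPM in BSHhigh colon, with 6 of 6 markers positive and 0 called. BSHlow library 4 had 22.2 CPM and library 1 had 29.3 CPM, so the library highest for the GTPases was not the one highest for these markers. Natural killer and cytotoxic markers summed to 5.402 to 22.4 CPM in BSHlow and 14.6 to 55.8 CPM in BSHhigh colon (3 tested, 3 positive, 0 called), and B cell markers to 1.501 to 15.5 CPM and 5.42 to 48.98 CPM (4 of 4 positive, 0 called). Library 1 had the highest BSHlow sum of both. The part of these cells was not tested. Without BSHlow library 2 the median log2 fold change of the members was 0.92, with 10 positive and 0 called.

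**Figure D3:**
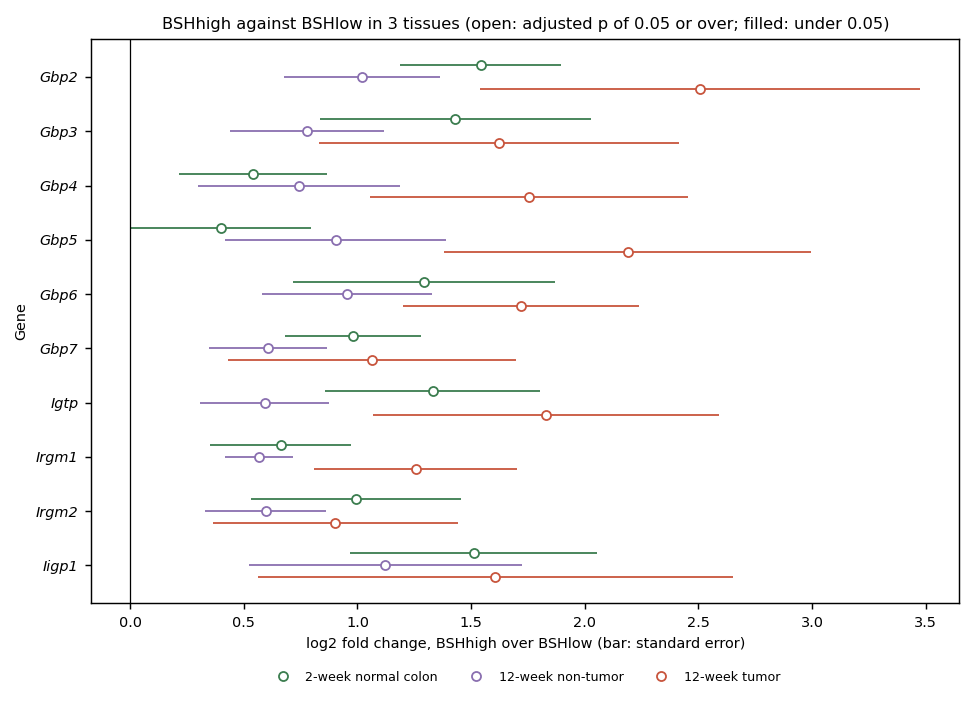
Log2 fold change of BSHhigh over BSHlow (x axis, points, with SE as bars) for each of the 10 GTPases (y axis) in 2-week normal colon (green), 12-week non-tumor tissue (purple) and 12-week tumors (red). All points lie right of 0 and all are open, meaning an edgeR adjusted p of 0.05 or over.

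Whether the difference between arms differed between tissues was tested directly. The log2 fold change was larger in tumors than in non-tumor tissue for all 10 members, by 0.32 (Irgm2) to 1.49 (Gbp2, SE 1.05), and 0 passed edgeR (0.978% of genes called higher, 0.0122% lower), with adjusted p-values of 0.732 to 0.970. None had an unadjusted p under 0.05 (7.36% of genes higher, 2.24% lower), and DESeq2 and limma-voom called 0. Over all genes 53.9% of these differences were positive. Without BSHlow tumor 1 they ran from 0.80 to 2.97 (lowest adjusted p = 0.123), and without BSHhigh tumor a from −0.23 (Iigp1) to 0.88 (Gbp5) with 8 of 10 positive. Leaving out BSHlow tumor 2, BSHhigh tumor c or BSHhigh non-tumor 2 or 4 kept all 10 positive, and no such fit called a member. Between 12-week non-tumor tissue and 2-week colon the differences ran from −0.73 to 0.52, again with 0 called (0% of genes), 0 at an unadjusted p under 0.05 (4.57% of genes higher, 2.74% lower) and 0 by DESeq2 and limma-voom. Without BSHlow 2-week library 4 these ran from −1.80 (Gbp3) to 0.25 (Gbp5) and without BSHhigh non-tumor 4 from −1.13 to 0.33, with 0 called in both.

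Between tumor and non-tumor tissue of the BSHlow arm, 33.3% of genes were called higher and 32.2% lower. No GTPase passed edgeR's test there in the main fit, with TMM scaling, no block and no library left out. None had an unadjusted p under 0.05 either, where 34.8% of genes did in the higher and 33.6% in the lower direction. The log2 fold changes were positive for 5 and negative for 5, and 51.6% of genes were positive. DESeq2 called 0 and limma-voom called 1 lower (Gbp2, adjusted p = 0.0328). The shares of all genes called with limma-voom and with the replicate block described next are not given. In edgeR with the replicate number as a block, Gbp2 (−2.25, adjusted p = 0.0195) and Irgm1 (−0.64, adjusted p = 0.0472) were called lower, and with library size scaling Gbp6 was called higher (adjusted p = 0.0253). Gbp2 was at 22.98 to 34.2 CPM in non-tumor tissue and at 2.36 to 29.0 CPM in tumors (log2 fold change −1.49, SE 0.74, edgeR adjusted p = 0.0896). Gbp6 went the other way, from 2.86 to 7.19 CPM in non-tumor tissue to 5.03 to 19.8 CPM in tumors (0.95, SE 0.47, adjusted p = 0.0898). Tumor and non-tumor tissue also held different mixtures of cells, whose part in these values was not tested.

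The calls in this arm also changed with BSHlow tumor 1. Without it, 5 members were called lower in tumors by edgeR, where 32% of genes were. It was the highest BSHlow tumor for 10 of 10 members, so the shares of all genes given here are not a like background. Gbp2 fell by 2.98 on the log2 scale (adjusted p = 0.00107), Gbp3 by 1.36 (adjusted p = 0.0227), Gbp5 by 1.49 (adjusted p = 0.0377), Gbp7 by 1.49 (adjusted p = 0.00281) and Irgm1 by 0.98 (adjusted p = 0.00803). Of these, 3 (Gbp2, Gbp7 and Irgm1) then had groups that did not overlap, beside 29.7% of genes in that direction.

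In the BSHhigh arm 9 of 10 log2 fold changes between tumor and non-tumor tissue were positive, as were 52.1% of all genes. Gbp6 rose in tumors, from 10.6, 5.98, 6.06 and 15.3 CPM in non-tumor tissue to 47.7, 25.1 and 22.03 CPM (log2 fold change 1.73, SE 0.49, edgeR adjusted p = 0.00788), where 29.4% of genes were called higher and 27.2% lower, and it passed under every alternative tried. Its groups and those of Gbp4 did not overlap (32.2% of genes). Gbp4 was at 6.88, 1.93, 4.97 and 7.33 CPM in non-tumor tissue and at 24.7, 11.4 and 8.78 CPM in tumors (1.49, SE 0.63, adjusted p = 0.0571). Iigp1 had the largest value (2.04, SE 0.94, adjusted p = 0.0774), and Gbp2 was level between the tissues (0.00, SE 0.76). Without BSHhigh tumor a, Gbp2 was at −1.14 (adjusted p = 0.253) and Gbp6 remained called (1.30, adjusted p = 0.0494). Without BSHhigh non-tumor 4, Iigp1 was also called higher (2.80, adjusted p = 0.0352). The cell mixtures of tumor and non-tumor tissue differed in this arm as well, and their part was not tested.

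Compared with 2-week normal colon, the 12-week non-tumor tissue showed different directions for different members. In the BSHhigh arm Gbp5 rose, from 1.36, 1.62, 1.56 and 1.76 CPM at 2 weeks to 5.25, 1.87, 5.88 and 6.89 CPM at 12 weeks (log2 fold change 1.66, SE 0.46, edgeR adjusted p = 0.00777, 27% of genes called higher). Irgm1 fell by 0.88 (SE 0.27, adjusted p = 0.0142), from 87.5 to 138 CPM at 2 weeks to 46.1 to 67.3 CPM at 12 weeks. Igtp fell by 1.14 (SE 0.43, adjusted p = 0.0371) and Gbp6 by 1.46 (SE 0.54, adjusted p = 0.0340), where 22.7% of genes were called lower. Gbp5, Igtp and Irgm1 had groups that did not overlap (25.1% of genes higher, 22.8% lower). The calls for Gbp6 and Igtp were lost when BSHhigh non-tumor 1, 2 or 3 or BSHhigh 2-week library 2 was left out, and further without 2-week library 4 for Gbp6 and library 3 for Igtp (adjusted p of 0.0529 to 0.114 for Gbp6 and 0.0523 to 0.109 for Igtp). Igtp was also not called with 23 libraries in 1 fit (−1.15, edgeR adjusted p = 0.1095). That for Irgm1 was lost without BSHhigh 2-week library 2 (adjusted p = 0.0516).

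In the BSHlow arm Irgm1 alone was called, at a log2 fold change of −0.80 (SE 0.27, edgeR adjusted p = 0.0246, where 23.5% of genes were called lower and 25.6% higher). It was at 57.95, 52.4, 36.0 and 117 CPM at 2 weeks and at 30.3 to 45.0 CPM at 12 weeks, so the ranges overlapped. Without BSHlow 2-week library 4 its value was −0.36 (adjusted p = 0.135), and Gbp2 (1.42, adjusted p = 0.00591), Gbp5 (1.40, adjusted p = 0.0416) and Gbp7 (0.95, adjusted p = 0.00605) were called higher instead, where 24.9% of genes were. That library was the highest of its group for 10 of 10 members, so the 24.9% is not a like background. Without BSHlow non-tumor library 3 Irgm1 also lost its call (adjusted p = 0.0711). Time, muscle content and any difference between the cohorts cannot be told apart in these comparisons. Scaling by library size shifted the median of all genes by 0.23 (BSHlow) and 0.31 (BSHhigh) and left no member called lower.

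**Figure D4:**
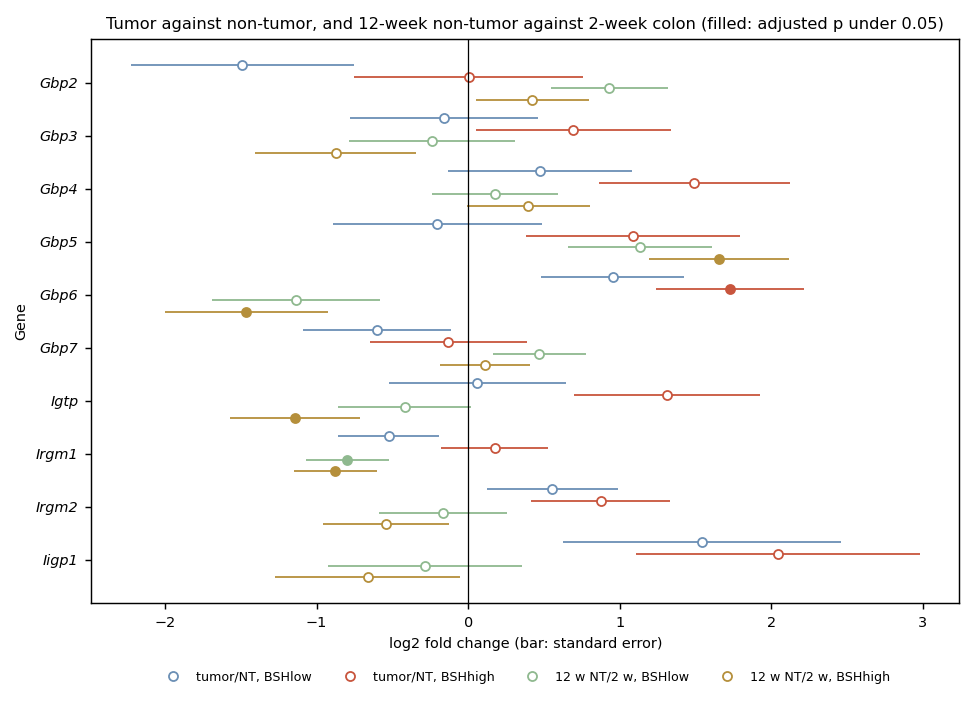
Log2 fold change (x axis, points, with SE as bars) of the 10 GTPases (y axis) for tumor over non-tumor tissue and for 12-week non-tumor tissue over 2-week colon, each in BSHlow and BSHhigh; filled points have an edgeR adjusted p under 0.05. Filled are Gbp6 in BSHhigh tumors (1.73), Irgm1 in the 12-week tissue of both arms (−0.80 and −0.88), and Gbp5 (1.66), Gbp6 (−1.46) and Igtp (−1.14) in that of the BSHhigh arm.

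The ligand of the pathway was barely detected. Ifng, the gene of interferon gamma, did not exceed 0.569 CPM in any library, and no fold is given for it. That value was in BSHhigh tumor a, tumor b had 0.313 CPM and tumor c 0, and among BSHlow tumors it was above 0 in tumor 1 alone (0.0982 CPM). In BSHlow 2-week colon it was above 0 in library 4 alone (0.422 CPM), beside 0.0743 to 0.454 CPM in the BSHhigh libraries. In non-tumor tissue the highest values were in BSHhigh library 2 (0.374 CPM) and BSHlow library 4 (0.194 CPM), and BSHhigh library 4, highest for the GTPases, had 0.0748 CPM. In tumors Irf1 had a log2 fold change of 1.37 (SE 0.27, edgeR adjusted p = 0.0705) and the receptor gene Ifngr1 one of 0.77 (SE 0.15, adjusted p = 0.0666), while Ifngr2 (0.05), Jak1 (0.06) and Jak2 (0.18) were near 0.

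Relatives and co-targets of the GTPases lay in the same range. Of 17 other interferon-inducible GTPases, 15 were tested in tumors, with 15 positive, 0 called and a median log2 fold change of 1.39, and the medians were 0.69 (12 tested) in non-tumor tissue and 0.98 (11 tested) in 2-week colon. Of 18 interferon gamma targets that are not GTPases, 18 were positive in tumors with a median of 1.71, and Nos2, the inducible nitric oxide synthase, was the 1 called higher. Nos2 was at 16.2 to 22.9 CPM in BSHlow and 77.5 to 164 CPM in BSHhigh tumors (2.60, SE 0.26, edgeR adjusted p = 0.0290). In non-tumor tissue and 2-week colon 17 of these 18 were positive, with medians of 0.62 and 0.91 and 0 called. The 16 tested genes of the type I and lambda interferon list had medians of 1.14, 0.53 and 1.18 in tumors, non-tumor tissue and 2-week colon, with 0 called. That list mixes response genes with the receptor genes Ifnar1, Ifnar2, Ifnlr1 and Il10rb. The receptor genes were at −0.15 to 0.36 in tumors and at −0.18 to 0.14 in non-tumor tissue. They lay below the medians of those tissues, so the medians understate the response genes there.

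Genes whose products act with the GTPases did not all follow. The 14 autophagy and ubiquitin genes, which load the GTPases onto vacuoles or mark the vacuoles, had a median log2 fold change of −0.03 in tumors, −0.00 in non-tumor tissue and 0.12 in 2-week colon, with 0 called in each. The 10 inflammasome genes had a median of 0.64 in tumors with 9 positive and 0 called. Pycard, the inflammasome adaptor, was at 1.597 (SE 0.31, edgeR adjusted p = 0.0645) and Casp1 at 1.41 (SE 0.32, adjusted p = 0.0934) in tumors.

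**Figure D5:**
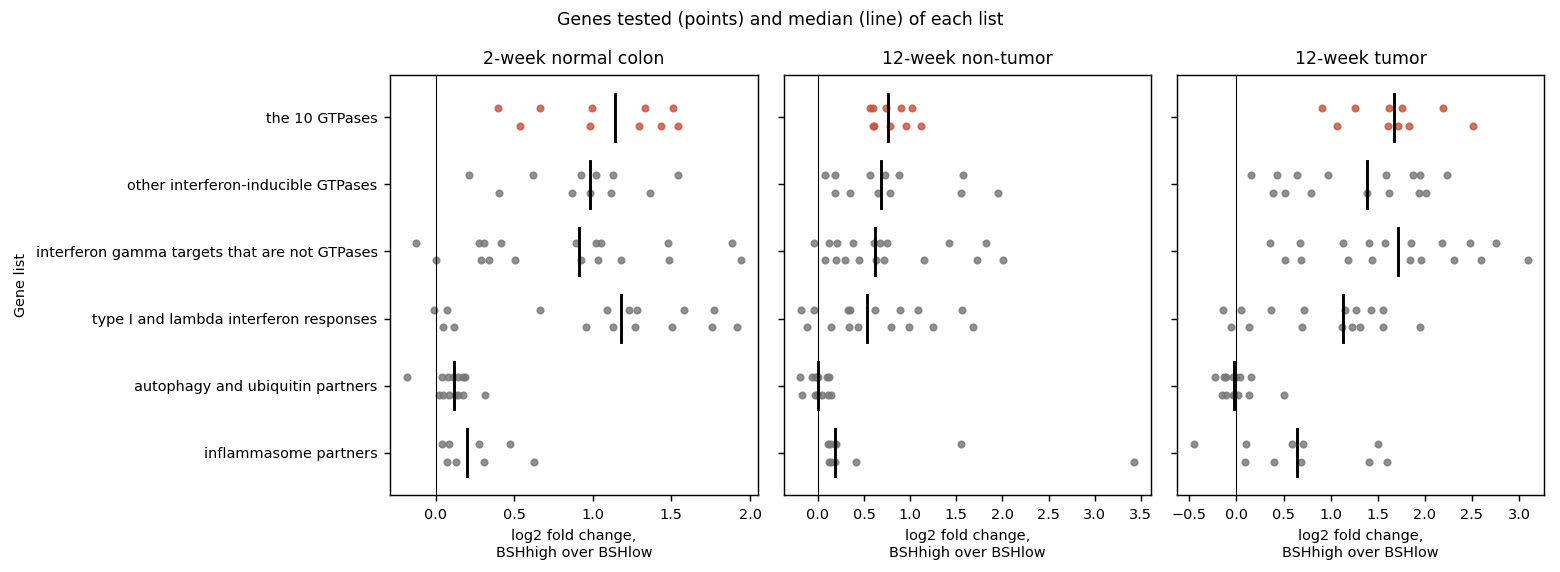
Log2 fold change of BSHhigh over BSHlow (x axis) for the genes tested in the 10 GTPases (red) and 5 related gene lists (grey, y axis), with list medians as black lines, in 2-week colon, 12-week non-tumor tissue and 12-week tumors. In tumors the median was 1.67 for the 10 GTPases, 1.71 for the other interferon gamma targets and −0.03 for the autophagy and ubiquitin partners.

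Between tissues members of these lists were called in both directions, as were many genes. In BSHlow tumors against non-tumor tissue, where 33.3% of all genes were called higher and 32.2% lower, 8 of 18 interferon gamma targets were called lower and 0 higher, 3 of 16 tested relatives were called higher (Gbp9, Gbp10 and Tgtp1) and 0 lower, and 5 of 10 inflammasome genes were lower (Casp1, Nlrc4, Pycard, Gsdmd and Il18) with Nlrp3 and Il1b higher. Casp1 and Gsdmd stand in both the target and the inflammasome list. In BSHhigh tumors (29.4% of genes higher, 27.2% lower), 4 targets were lower and 2 higher (Nos2 and Serping1), and 4 relatives were higher with Gbp2b lower. From 2-week colon to 12-week non-tumor tissue, 12 of 16 genes of the type I and lambda list were called lower in the BSHhigh arm (22.7% of all genes). In the BSHlow arm 9 of 16 were (23.5%), and 1 was called higher in each arm (the receptor gene Ifnar2).

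The genes whose levels followed the set most closely were then ranked. After removing the mean of each group, the average log2 level of the 10 GTPases was correlated across the 23 libraries with each of 14352 other genes, a ranking that carries no test and rests on spread between libraries of one group. The closest were Tap1, the peptide transporter of antigen presentation (r = 0.95), Tgtp2 (0.94), Zbp1 (0.94), Cxcl9 (0.92), H2-Q4 (0.92), Psmb9 (0.91), Nlrc5, the activator of MHC class I genes (0.90), and Tgtp1 (0.89). Leaving out BSHlow tumor 1 and BSHlow 2-week colon 4, r was 0.92 for Tap1 and 0.81 for Tgtp1. Irf1 stood at rank 1928 with r = 0.32, and 0.51 without those 2 libraries. Within the 4 BSHlow tumors Tap1 ranged from 9.75 to 33.9 CPM.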

How the data were processed

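Per the labels and the methods, the authors used Cutadapt for trimming of paired-end NextSeq reads, STAR for alignment to mm10, Picard for quality checks and RSEM for quantification, and deposited expected counts per gene for the 23 libraries in 1 table. Versions are not given in the sources used here. The labels name a total RNA preparation and the methods a stranded mRNA one. The deposited expected counts (4.24% of values not whole) were rounded here, and 1 row without an identifier was left out. The 3 unnumbered BSHhigh tumor columns were matched to their group through values in a supplementary table of the study.

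edgeR 4.0.16 in R 4.3.3 (TMM scaling, filterByExpr, quasi-likelihood test, prior count 2, Benjamini-Hochberg over all genes tested) gave log2 fold changes, their SE and adjusted p, with a call at an adjusted p under 0.05. Tumors, non-tumor tissue and 2-week colon were each fitted alone, and contrasts between tissues or times used the 15 libraries of 12 weeks or the 16 without tumors. DESeq2 1.42.0 and limma 3.58.1 (voom) were alternatives, with other scalings, filters, the replicate block and each library left out in turn. The scripts were tested on simulated data. Replicate numbers were not used to pair samples in the main fits. Any 2 libraries of a group differed by more than counting noise. Levels are TMM-scaled CPM, per kilobase of GENCODE exon union where genes are compared. Genes named are the 10 members, interferon gamma, its receptor and kinase genes and Irf1, up to 3 called genes of each list and the 8 genes most like the members, and others were named after their values were seen. Results for 1 gene list are not reported here. The members and lists were chosen with earlier results of these data known.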

Additional observations from a re-analysis of the deposited data

Results flagged for a closer look

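Of 50 sets of 1 member in 1 group of 4 libraries, 11 held a library that stood apart. Its gap to the nearest neighbour exceeded Dixon's limit of 0.829 of the group's range. Chance gives about 1 in 20 for normally distributed values, and CPM values need not be so distributed. All 11 came from 2 libraries. BSHlow tumor 1 stood apart for Gbp2 (29.0 CPM), Gbp3 (19.1 CPM), Gbp5 (6.28 CPM), Gbp6 (19.8 CPM), Gbp7 (19.8 CPM), Irgm1 (47.8 CPM) and Iigp1 (35.7 CPM). BSHlow 2-week colon 4 stood apart for Gbp3 (24.5 CPM), Gbp7 (16.6 CPM), Igtp (33.3 CPM) and Iigp1 (11.5 CPM). In each case the library was the highest of its group. The members share their libraries and move together, so the 11 are not independent of one another.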

How the results depend on the processing

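Under every alternative tried, the 10 fold changes between BSHhigh and BSHlow stayed positive in tumors, non-tumor tissue and 2-week colon, and no member was called for a difference between tissues or times in that effect. The count called higher, 0 in each tissue, was 1 by DESeq2 in each and 2 in tumors with 23 libraries in 1 fit. With each library left out in turn it ran from 0 to 5 in 2-week colon, the 5 without BSHlow library 4. For the tissue and time contrasts that follow, the share of all genes called is not given for DESeq2, limma-voom, block or 23-library fits. Those counts of members therefore have no background beside them. The main edgeR fit called between 22.7% and 33.3% of all genes in each direction of these contrasts. For tumor against non-tumor tissue in BSHlow, 0 members were called, and with library size scaling 1 was higher (Gbp6), with limma-voom 1 lower, with the replicate block 2 lower (Gbp2 and Irgm1), and leaving out libraries gave 0 to 5 lower. In BSHhigh the 1 member called higher became 2 with DESeq2, 3 with limma-voom, 5 with library size scaling and 3 with 23 libraries, and 1 to 2 leaving out libraries (Iigp1 added without BSHhigh non-tumor 4, adjusted p = 0.0352). For 12 weeks against 2 weeks in BSHlow, 0 called higher became 2 with DESeq2, 2 with library size scaling, 1 with the replicate block and 0 to 3 leaving out libraries, and 1 called lower became 0 with library size scaling, with 23 libraries and with an added absolute log2 fold change over 1, and 0 to 2 leaving out libraries (2 without BSHlow 2-week library 3, which added Gbp6). In BSHhigh the 3 called lower became 0 with library size scaling, 2 with 23 libraries (without Igtp), 2 with an added absolute log2 fold change over 1, and 0 to 3 leaving out libraries (1 without BSHhigh non-tumor 1, 2 or 3, and 0 without BSHhigh 2-week library 2).

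Directions turned only for values that did not pass the test. Between tumor and non-tumor tissue in BSHlow, library size scaling gave 0.20 for Gbp3 and 0.15 for Gbp5, and Igtp was −0.37 with limma-voom and −0.36 with the replicate block. Leaving out libraries gave −1.36 to 0.10 for Gbp3, −0.47 to 0.73 for Gbp4, −1.49 to 0.11 for Gbp5, −0.79 to 0.35 for Igtp and −0.38 to 1.88 for Iigp1, the lowest each time without BSHlow tumor 1. In BSHhigh, Gbp2 was −0.0467 with DESeq2, −0.27 with limma-voom, −0.0466 with RLE scaling and −0.0049 with a CPM filter, Gbp7 was 0.17 with library size scaling, and leaving out libraries gave −1.14 to 0.42 for Gbp2, −0.0341 to 1.04 for Gbp3, −0.57 to 0.15 for Gbp7 and −0.38 to 0.43 for Irgm1, from tumor a to tumor c left out. For 12 weeks against 2 weeks in BSHlow, limma-voom gave 0.0843 for Gbp3, 0.0823 for Irgm2 and 0.0308 for Iigp1, library size scaling gave 0.0071 for Irgm2, and the replicate block gave 0.0606 for Iigp1. Leaving out libraries gave −0.49 to 0.93 for Gbp3, −0.0465 to 0.42 for Gbp4, −0.66 to 0.40 for Igtp, −0.45 to 0.60 for Irgm2 and −0.55 to 0.74 for Iigp1, and −0.0151 to 0.23 for Gbp7 in BSHhigh. Apart from the library left out, the cause was not tested.

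Library size scaling moved the median of all genes between tumor and non-tumor tissue to 0.37 (BSHlow) and 0.35 (BSHhigh), and genes called higher and lower from 33.3% and 32.2% to 47% and 23.1% in BSHlow, and from 29.4% and 27.2% to 43.7% and 18.3% in BSHhigh. From 2 to 12 weeks it moved them from 25.6% and 23.5% to 36.7% and 12.7% in BSHlow, and from 27% and 22.7% to 42.1% and 11.6% in BSHhigh. Relative to those medians the library-size values that turned lie below 0. Of 120 group levels compared under other scalings, 118 moved by less than 1 SD, and Gbp5 (1.29 CPM) and Gbp7 (14.8 CPM) in BSHhigh 2-week colon under library size scaling moved by more. Correlations of the deviations of samples with the same replicate number ran from −0.17 to 0.26, and 5 of 20 matched best with their own number. Most of these pairs join different arms or times, which cannot share an animal, so they cannot test pairing. Between tumor and non-tumor tissue in BSHlow the correlations were 0.16, −0.08, 0.02 and 0.11 for numbers 1 to 4. There numbers 1 and 4 matched best with their own number. The labels do not say whether libraries of one number share an animal. No paired analysis was possible for the tumor contrasts of BSHhigh because the BSHhigh tumor columns carry no numbers. With 3 or 4 libraries a group, low-level members such as Gbp5 at 2 weeks (0.417 to 1.76 CPM) have wide errors.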
